A study of Macaca mulatta with 22 samples.

Results

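The genes described here are the DNA replication and repair genes of the rhesus macaque (Macaca mulatta) ovulatory follicle: the minichromosome maintenance (MCM), origin recognition (ORC), GINS, replication factor C (RFC), replication protein A (RPA), DNA polymerase, RAD, XRCC, ERCC, Fanconi anaemia (FANC), mismatch repair (MSH and MLH), BRCA and topoisomerase (TOP) genes, with PCNA and RDM1. A gene was a member when the array annotation gave it a single symbol of these families, and its probe set with the highest mean over all 22 arrays stood for it. The rule found 75 genes with 136 probe sets, of 14132 genes with a single symbol and 52766 probe sets tested. MCM6 and MCM7 had no single symbol in the annotation used and are not analysed here. The rule used symbols and overall level only, not a difference between groups, but it was chosen with earlier results of these data known.

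Single dominant follicles were profiled on 22 Affymetrix arrays made for this species, each follicle on its own array, to follow the transcriptome from the ovulatory stimulus to rupture. In all 5 groups the animals were females in a controlled ovulation protocol, given a GnRH antagonist (Acyline) with recombinant human FSH and LH at 30 IU each once serum estradiol had reached 100 to 120 pg/ml. The 6 follicles of the 0 h group were taken without an hCG injection. The other groups received 1000 IU of recombinant hCG, which acts like the LH surge, and were taken 12 h (4 follicles), 24 h (4 follicles) or 36 h later. At 36 h, 4 follicles had not ruptured and 4 had ruptured. Genotype and age were not given in the labels used here. The free-text description of all but 1 array speaks of the corpus luteum after ovulation, also at 0 h, whereas titles, source names and protocols give the follicle and the hour, which were followed here. Markers of the follicle wall were present: at 0 h the granulosa gene CYP19A1 averaged 11.3 and the theca gene CYP17A1 12.1 log2 intensity, where the median probe set of an array lay near 4.73. All levels below are log2 intensity of 1 probe set, and a change is the difference of 2 group means on that scale, so that a change of 1 is 2-fold. Levels of different genes are not compared, because each probe set has its own response.

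DNA is copied in S phase from origins that ORC and the MCM helicase have licensed, by polymerases held on the template by the PCNA clamp. The repair genes serve separate pathways: homologous recombination and the Fanconi pathway deal with breaks and crosslinks, excision and mismatch repair with damaged or mispaired bases, and end joining with breaks through the cell cycle. Granulosa cells of the growing follicle divide, and they leave the cell cycle and luteinize after the ovulatory surge.

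Of the 75 members, 39 (52%) differed among the 5 groups (limma F test, adjusted p under 0.05), beside 20.1% of all probe sets and 29% of the named genes taken by 1 probe set each. The members as a set were highest before hCG and lowest in ruptured follicles. The mean level over all 75 ranged over 6.73 to 6.88 in the 0 h follicles, 6.31 to 6.49 at 12 h, 6.46 to 6.65 at 24 h, 6.50 to 6.59 in unruptured 36 h follicles and 6.21 to 6.28 in ruptured 36 h follicles. The 0 h follicles lay above every later follicle in this mean, and the ruptured follicles lay below every other. Of the members, 42 (56%) had their highest group mean at 0 h, against 20.1% of all named genes, and 46 (61.3%) had their lowest in ruptured follicles, against 25.9% of all named genes. In these whole-follicle samples, fewer cells of a type and less RNA per cell cannot be told apart.

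**Figure D1:**
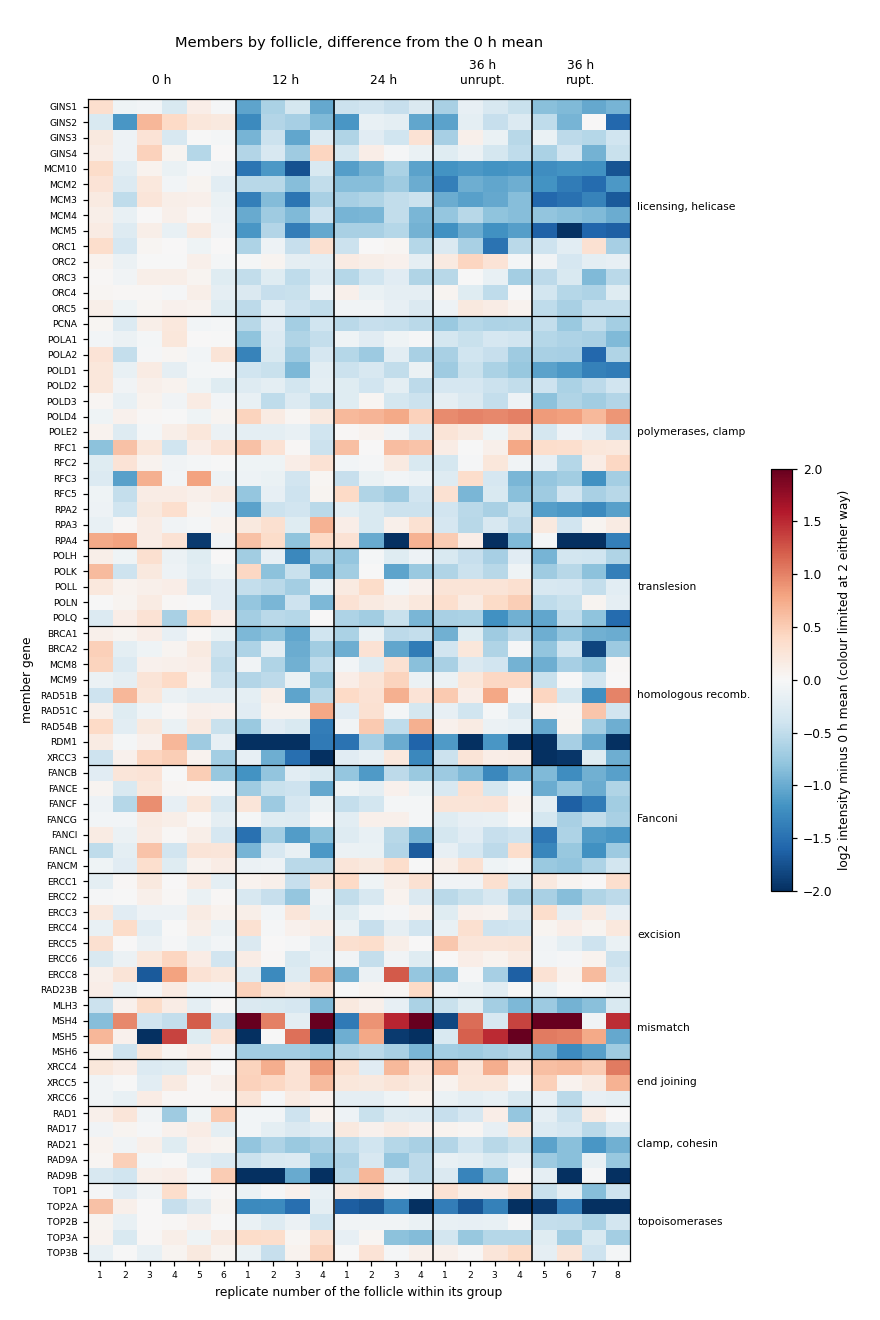
Each row is 1 of the 75 member genes, ordered by role, and each column 1 follicle, ordered by group; colour gives log2 intensity minus the mean of the 0 h follicles. The licensing and helicase rows and TOP2A are blue in most follicles after 0 h, POLD4 turns red with time, and most excision repair rows stay pale, with ERCC8 varying within groups.

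At 12 h after hCG, helicase, polymerase and clamp genes were lower than in follicles without hCG. The 2 higher calls, both end joining genes, were a smaller share than among all named genes. Of the 75 members, 23 (30.7%) were lower and 2 (2.67%) higher at 12 h than at 0 h, whereas 5.05% of all probe sets were lower and 4.28% higher, and 7.8% and 6.5% of the named genes. The median change was -0.41 over the members and -0.0037 over all named genes. Of the 14 licensing and helicase genes 8 fell, namely MCM2, MCM3, MCM4, MCM5, MCM10, GINS1, GINS3 and ORC5, and none rose. Among 15 replicative polymerase, primase, clamp and loader genes 4 fell (PCNA, POLA1, POLD1 and RPA2), as did 3 of 5 translesion and other polymerases (POLH, POLL and POLN). For POLD1 the median over its 2 probe sets was 0.18, opposite in sign, as the other probe set rose. In a fit of these 2 groups alone none of the 4 replicative genes passed (adjusted p 0.0537 to 0.122). The others that fell were FANCE and FANCI of 7 Fanconi genes, BRCA1 and RDM1 of 9 recombination genes, MSH6 of 4 mismatch genes, RAD21 and RAD9B of 5 checkpoint clamp and cohesin genes, and TOP2A of 5 topoisomerases. None of the 8 nucleotide excision repair genes was called, and their changes ranged from -0.41 to 0.30.

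The MCM2 to MCM5 proteins are subunits of the replicative helicase. MCM2 measured 7.63, 7.63, 7.32 and 7.68 in the 12 h follicles, against a lowest of 7.91, a median of 8.18 and a highest of 8.45 in the 0 h follicles. All 12 h follicles were below all 0 h follicles, a change of -0.61 ± 0.13 (SE, adjusted p = 0.00571). MCM3 measured 6.71, 7.21, 6.61 and 7.42 at 12 h, against a lowest of 7.56, a median of 8.18 and a highest of 8.32 at 0 h. These groups also stood apart, and at -1.09 ± 0.16 (SE, adjusted p = 0.000392) MCM3 was 2.12-fold lower. MCM4 measured 7.21, 7.50, 7.34 and 7.80 at 12 h, against a lowest of 8.07, a median of 8.23 and a highest of 8.33 at 0 h, again without overlap, a change of -0.76 ± 0.12 (SE, adjusted p = 0.000723). MCM5 measured 7.11, 7.69, 6.90 and 7.25 at 12 h, against a lowest of 8.02, a median of 8.31 and a highest of 8.46 at 0 h. Its highest 12 h follicle stayed below the lowest 0 h follicle, and the change was -1.04 ± 0.14 (SE, adjusted p = 0.000184). MCM10, which helps the assembled helicase to start unwinding, measured 4.95, 5.26, 4.66 and 6.10 at 12 h, against a lowest of 6.20, a median of 6.36 and a highest of 6.77 at 0 h. The groups did not overlap, and the change of -1.16 ± 0.21 (SE, adjusted p = 0.00145) was the lowest among the 14 licensing and helicase genes.

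PCNA, the sliding clamp, measured 9.13, 9.47, 9.01 and 9.29 at 12 h, against a lowest of 9.42, a median of 9.70 and a highest of 9.90 at 0 h. The highest 12 h follicle lay within the 0 h range, and the change was -0.46 ± 0.11 (SE, adjusted p = 0.0115). TOP2A, the topoisomerase of dividing cells that untangles sister chromatids, measured 7.56, 7.58, 7.33 and 8.63 at 12 h, against a lowest of 8.38, a median of 8.86 and a highest of 9.42 at 0 h. Its 12 h follicle of replicate 4 lay among the 0 h follicles, and the change was -1.06 ± 0.28 (SE, adjusted p = 0.0204). That call ended without 12 h replicate 1, 2 or 3 (adjusted p up to 0.0718). The 12 h arrays also had the widest spread of the 3' minus 5' index of control transcripts, a measure of RNA quality and labelling, with 0.391 ± 0.079 (SD, n = 4) at 12 h and 0.328 ± 0.041 (SD, n = 6) at 0 h. With that index as a covariate TOP2A had an adjusted p of 0.0736, and GINS3, POLD1, POLH, POLL, XRCC4 and XRCC5 also missed the threshold, which left 18 of the 25 calls.

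**Figure D2:**
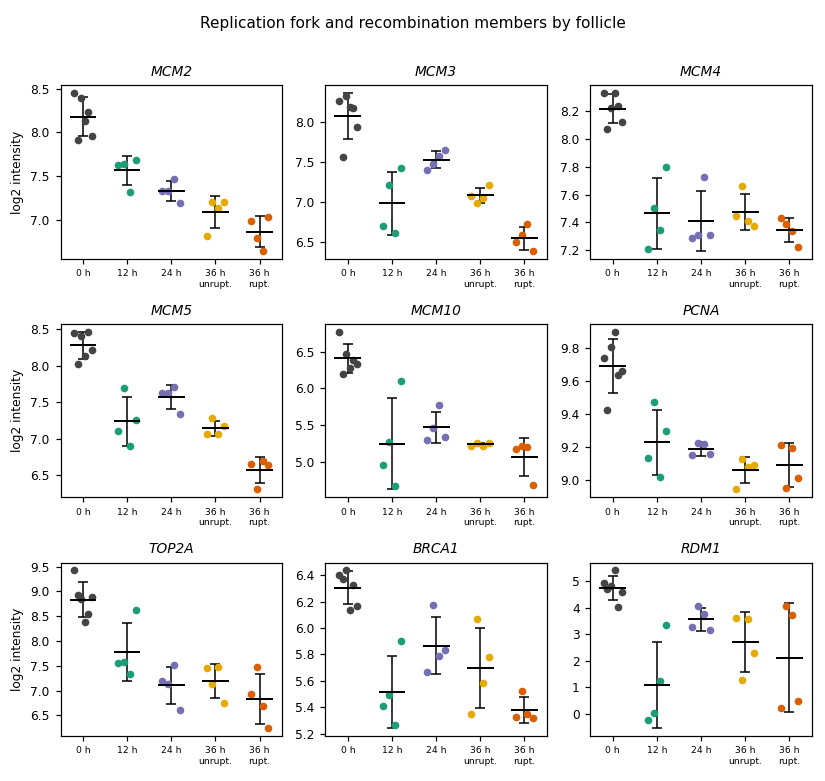
Points are follicles, with log2 intensity on the vertical axis and the 5 groups on the horizontal axis; lines give the group mean and bars the SD (n = 6 at 0 h, n = 4 in the other groups). In MCM2, MCM3, MCM4, MCM5, MCM10 and BRCA1 every 12 h follicle lies below every 0 h follicle, and TOP2A and PCNA each have a 12 h follicle within the 0 h range.

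Among the recombination genes, BRCA1, which acts at resected breaks, measured 5.41, 5.49, 5.26 and 5.90 at 12 h, against a lowest of 6.14, a median of 6.35 and a highest of 6.43 at 0 h. The groups did not overlap, and the change was -0.79 ± 0.15 (SE, adjusted p = 0.00205). BRCA2, which acts in homologous recombination, measured 3.48, 3.91, 3.10 and 3.40 at 12 h, against a lowest of 3.66, a median of 4.07 and a highest of 4.57 at 0 h. These groups overlapped, and the change of -0.62 ± 0.31 (SE, adjusted p = 0.252) did not pass. RDM1, a protein with a motif like that of RAD52, measured -0.23, 0.04, 1.25 and 3.34 at 12 h, against a lowest of 4.03, a median of 4.77 and a highest of 5.41 at 0 h. The groups stood apart, and the change of -3.65 ± 0.77 (SE, adjusted p = 0.00485) was the lowest among the 75 members. RAD9B, a paralogue of the checkpoint clamp subunit RAD9A, measured 0.39, 0.52, 2.99 and 1.60 at 12 h, against a lowest of 3.60, a median of 4.03 and a highest of 4.51 at 0 h. It also showed no overlap, at -2.62 ± 0.59 (SE, adjusted p = 0.00766). RDM1, RAD9B and BRCA2 averaged below the array median of 4.73 over all arrays, as did 14 members in all, and the size of a change at such levels is uncertain.

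Of the Fanconi genes, FANCI, which acts in a pair with FANCD2, measured 5.28, 6.08, 5.64 and 5.94 at 12 h, against a lowest of 6.44, a median of 6.83 and a highest of 6.92 at 0 h. The groups did not overlap, and the change was -1.03 ± 0.18 (SE, adjusted p = 0.00148). FANCE, a core complex subunit, measured 6.60, 6.86, 6.89 and 6.28 at 12 h, against a lowest of 7.00, a median of 7.33 and a highest of 7.53 at 0 h, also without overlap, at -0.65 ± 0.15 (SE, adjusted p = 0.0103). FANCF measured 6.01, 5.05, 5.44 and 5.63 at 12 h, against a lowest of 5.19, a median of 5.63 and a highest of 6.70 at 0 h, and FANCM 6.44, 6.46, 6.02 and 6.02 at 12 h, against a lowest of 6.32, a median of 6.55 and a highest of 6.89 at 0 h. Both overlapped between the groups, and their changes of -0.24 ± 0.28 (SE, adjusted p = 0.702) and -0.32 ± 0.14 (SE, adjusted p = 0.191) did not pass. POLL measured 7.61, 7.54, 7.40 and 7.93 at 12 h, against a lowest of 7.79, a median of 8.16 and a highest of 8.29 at 0 h, with 1 of its 12 h follicles within the 0 h range and a change of -0.46 ± 0.13 (SE, adjusted p = 0.0277).

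The members that rose at 12 h both belong to non-homologous end joining. XRCC4, the partner of DNA ligase IV, measured 5.79, 6.09, 5.64 and 6.21 at 12 h, against a lowest of 5.08, a median of 5.42 and a highest of 5.58 at 0 h. The groups were just separated, with a change of 0.58 ± 0.18 (SE, adjusted p = 0.0471). XRCC5, the larger Ku subunit, measured 10.67, 10.63, 10.50 and 10.83 at 12 h, against a lowest of 9.99, a median of 10.21 and a highest of 10.38 at 0 h, also separated, with a change of 0.45 ± 0.12 (SE, adjusted p = 0.0217). Neither call was firm. For XRCC4 it ended without 0 h replicate 2, 3, 4, 5 or 6 or without 12 h replicate 1, 2 or 4 (adjusted p up to 0.152), and for XRCC5 without 0 h replicate 3 or without 12 h replicate 1 or 4 (adjusted p up to 0.0785). XRCC6, the other Ku subunit, did not pass at 0.12 ± 0.10 (SE, adjusted p = 0.554).

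Of the 25 calls at 12 h against 0 h, 16 were kept in every fit that left out 1 of the 10 arrays. A fit of these 2 groups alone called 13 members, with 41 at an unadjusted p under 0.05, and 5.19% of all probe sets. There FANCE, GINS3, ORC5, PCNA, POLA1, POLD1, POLH, POLL, RPA2, TOP2A, XRCC4 and XRCC5 missed the threshold (adjusted p 0.0504 to 0.136). Those that ended when an array was left out were GINS3, ORC5, POLD1, POLH, POLL, RPA2, TOP2A, XRCC4 and XRCC5. RPA2 lost its call only without 12 h replicate 1 (adjusted p = 0.0555) and ORC5 without 12 h replicate 1 or 4 (adjusted p up to 0.0632). POLL ended without 0 h replicate 1, 3 or 4 or without 12 h replicate 1, 2 or 3 (adjusted p up to 0.0942), POLD1 without 0 h replicate 1 or 3 or without 12 h replicate 1, 2 or 3 (adjusted p up to 0.115), POLH without 0 h replicate 1 or 3 or without 12 h replicate 1, 3 or 4 (adjusted p up to 0.12) and GINS3 without 0 h replicate 1, 2, 3, 5 or 6 or without 12 h replicate 1, 2 or 3 (adjusted p up to 0.142). Markers of other cells also moved between these groups. Of 10 macrophage markers 4 were higher and none lower, with a summed intensity of 2466 to 6441 at 12 h and 1721 to 3038 at 0 h. Of 8 granulosa markers 2 (INHBB and HSD17B1) were lower and none higher, with sums of 2676 to 12190 at 12 h and 6534 to 14680 at 0 h. Of 7 theca markers 2 (CYP17A1 and HHIP) were lower and 1 (STAR) higher, with sums of 14520 to 27530 at 12 h and 16510 to 23750 at 0 h. Of 5 neutrophil markers 1 was higher, with sums of 130.5 to 229.1 at 12 h and 42.46 to 240.8 at 0 h, and of 4 smooth muscle markers 1 was higher, with sums of 10900 to 13590 at 12 h and 7317 to 10760 at 0 h. None of 9 endothelial, 8 lymphocyte, 8 oocyte and 3 erythroid markers was called. Against an array median of 4.73, some markers reached low values over the 22 arrays. The lowest log2 was -0.16 in the granulosa, 0.237 in the lymphocyte and 0.685 in the neutrophil list. The part of these markers in the members' changes was not tested.

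At 24 h a few members were called higher than at 12 h, among them the polymerases POLN and POLL, but none in a fit of these 2 groups alone. Of the 75, 7 (9.33%) were higher and 1 (1.33%) lower at 24 h than at 12 h, beside 3.67% higher and 3.2% lower of all probe sets and 5.84% and 5.02% of the named genes. The median change was 0.14, beside 0.02 over all named genes. The higher members were POLN, POLL, POLA1, POLD4, FANCE, MCM9 and RAD9B, and the lower one was TOP3A. MCM9 was the only MCM gene among them, and it works with MCM8 in recombination.

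POLN, a translesion polymerase, measured 7.68, 7.57, 7.50 and 7.60 at 24 h, against 6.61, 6.47, 6.97 and 6.49 at 12 h. All 24 h follicles were above all 12 h follicles, by 0.95 ± 0.14 (SE, adjusted p = 0.000587). At 12 h POLN had been lower than at 0 h, where it had a lowest of 7.17, a median of 7.39 and a highest of 7.54, with a change of -0.75 ± 0.13 (SE, adjusted p = 0.00103). The 2 other POLN probe sets, which averaged 4.47 and 1.90 over all arrays, changed by -0.12 and -0.38 at 24 h against 12 h, and neither was called. POLL, a polymerase that fills gaps in end joining and base excision repair, measured 8.26, 8.45, 8.03 and 8.16 at 24 h, against 7.61, 7.54, 7.40 and 7.93 at 12 h. The groups did not overlap, and the change was 0.60 ± 0.14 (SE, adjusted p = 0.012). With the index of control transcripts as a covariate this call ended (adjusted p = 0.0773). POLN and POLL were the members whose rise was kept whichever array was left out.

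RAD9B measured 3.42, 4.67, 3.73 and 3.47 at 24 h, against the 12 h values given above, without overlap and with a change of 2.45 ± 0.64 (SE, adjusted p = 0.0263). Its call ended without 12 h replicate 1, 2 or 4 or without 24 h replicate 2 or 3 (adjusted p up to 0.0928). MCM9 measured 6.39, 6.52, 6.70 and 6.14 at 24 h, against 5.66, 5.73, 6.13 and 5.49 at 12 h. The groups were separated by a narrow gap, with a change of 0.68 ± 0.20 (SE, adjusted p = 0.04), and the call ended without 12 h replicate 1, 2 or 4 or without 24 h replicate 1, 2 or 3 (adjusted p up to 0.12). TOP3A, which resolves recombination intermediates with the BLM helicase, measured 7.41, 7.60, 6.76 and 6.71 at 24 h, against 7.93, 7.93, 7.61 and 7.90 at 12 h. It fell without overlap, a change of -0.72 ± 0.19 (SE, adjusted p = 0.0233), and the call ended without 12 h replicate 1, 2 or 4 or without 24 h replicate 3 or 4 (adjusted p up to 0.0855). FANCE measured 7.21, 7.13, 7.39 and 7.18 at 24 h, against 6.60, 6.86, 6.89 and 6.28 at 12 h, also without overlap. Its change was 0.57 ± 0.17 (SE, adjusted p = 0.0453), and the call ended without 12 h replicate 1 or 4 or without 24 h replicate 1, 2, 3 or 4 (adjusted p up to 0.15).

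The count of 8 calls was itself unstable. It was 3 without 12 h replicate 1, 2 without 24 h replicate 3, and 5 without 12 h replicate 4, 24 h replicate 1 or 24 h replicate 2. A fit of these 2 groups alone called 0 members, with 14 at an unadjusted p under 0.05, and 0.358% of all probe sets. With the index as a covariate 4 calls were left, and the call of POLA1, the catalytic subunit of polymerase alpha, ended there and without 12 h replicate 1, 3 or 4 or without 24 h replicate 1, 3 or 4 (adjusted p up to 0.12). Of the helicase genes, MCM3 was at 7.40, 7.48, 7.58 and 7.65 and MCM5 at 7.63, 7.62, 7.71 and 7.34 in the 24 h follicles, changes of 0.54 ± 0.18 (SE, adjusted p = 0.0817) and 0.34 ± 0.16 (SE, adjusted p = 0.247) from 12 h that did not pass. Markers called lower at 24 h than at 12 h were 2 of 8 granulosa (CYP19A1 and INHBA), 1 of 7 theca (CYP17A1), 1 of 9 endothelial and 1 of 8 oocyte markers, and 1 theca marker (HHIP) was higher. Granulosa sums were 1625 to 3054 at 24 h and 2676 to 12190 at 12 h, theca sums 17330 to 21630 at 24 h and 14520 to 27530 at 12 h, endothelial sums 1550 to 2190 at 24 h and 1446 to 2368 at 12 h and oocyte sums 489 to 1399 at 24 h and 571.2 to 895.2 at 12 h. Their part in the members' changes was not tested.

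Between 24 h and 36 h without rupture no member was called by limma, and 2 of 52766 probe sets were, both lower (0.00379%), as was 0.00708% of the named genes. None was higher in either background (0%). At an unadjusted p under 0.05, 4 members were lower and 2 higher in unruptured 36 h follicles. Changes ranged from -0.87 for RDM1 to 2.25 for MSH5, both dim and variable, with a median of -0.08. MCM3, MCM5, PCNA and MCM10 lay without overlap below the 24 h follicles, at -0.44, -0.43, -0.13 and -0.23. Members such as POLA1, RPA3 and RAD23B also lay below them without overlap, whereas POLD4, FANCF, ERCC6 and RAD9A lay above. None of these changes passed after adjustment. The share of all named genes without overlap was not counted, so no weight is put on these separations.

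After rupture, some Fanconi, polymerase and licensing genes were called lower than in unruptured follicles of the same hour. None of them was called in a fit of these 2 groups alone. Of the 75 members, 19 (25.3%) were lower and 0 higher in ruptured follicles, whereas 4.99% of all probe sets were lower and 4.83% higher, and 7.67% and 6.47% of the named genes. At an unadjusted p under 0.05, 29 were lower and 1 higher. The median change over the members was -0.32, beside -0.06 over all named genes. Of the 7 Fanconi genes 5 fell (FANCE, FANCF, FANCG, FANCI and FANCM). So did GINS1, MCM5, ORC2 and ORC5 of the licensing genes, POLD1, POLE2 and RPA2 of the replicative polymerase group, and POLL and POLN. RAD17 and RAD21, TOP1 and TOP2B, and ERCC5 made up the rest. No recombination, mismatch or end joining member was called.

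FANCE and FANCF belong to the Fanconi core complex, a ubiquitin ligase that acts on FANCI and FANCD2 at crosslinks. FANCF measured 5.57, 4.13, 4.38 and 5.07 in ruptured follicles, against 6.02, 6.03, 6.04 and 5.84 in unruptured 36 h follicles. The groups stood apart, and the change of -1.20 ± 0.31 (SE, adjusted p = 0.0178) was the lowest of those called here, with a wide spread among ruptured follicles. FANCE measured 6.31, 6.54, 6.32 and 6.70 in ruptured follicles, against 6.99, 7.61, 6.95 and 7.25 in unruptured ones, without overlap, a change of -0.73 ± 0.17 (SE, adjusted p = 0.00824). FANCI measured 5.34, 6.14, 5.64 and 5.60 in ruptured follicles, against 6.42, 6.54, 6.30 and 6.36 in unruptured ones. It did not overlap either, at -0.73 ± 0.20 (SE, adjusted p = 0.027). FANCM, a translocase that brings the core complex to DNA, measured 5.81, 5.77, 5.95 and 6.20 in ruptured follicles, against 6.68, 6.86, 6.47 and 6.52 in unruptured ones. The groups were apart, with a change of -0.70 ± 0.16 (SE, adjusted p = 0.00788). The calls of FANCE and FANCM were kept whichever array was left out. FANCF ended without ruptured replicate 6 or 7 (adjusted p up to 0.0628), and FANCI without unruptured replicate 1, 2 or 4 or without ruptured replicate 5, 7 or 8 (adjusted p up to 0.0948).

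POLL and POLN, higher at 24 h than at 12 h, were lower in ruptured than in unruptured follicles. POLL measured 7.76, 7.74, 7.61 and 7.87 in ruptured follicles, against 8.34, 8.34, 8.33 and 8.39 in unruptured ones, groups that did not overlap, with a change of -0.61 ± 0.14 (SE, adjusted p = 0.00861). POLN measured 6.87, 6.94, 7.45 and 7.21 in ruptured follicles, against 7.72, 7.55, 7.77 and 7.88 in unruptured ones, also apart, at -0.62 ± 0.14 (SE, adjusted p = 0.00847). MCM5 measured 6.66, 6.31, 6.69 and 6.65 in ruptured follicles, against 7.06, 7.28, 7.06 and 7.17 in unruptured ones. Its groups did not overlap, the change was -0.57 ± 0.16 (SE, adjusted p = 0.027), and the call ended without unruptured replicate 2 or 4 or without ruptured replicate 6 (adjusted p up to 0.0852). MCM2, MCM4, MCM10, PCNA and TOP2A, which were below 0 h in both 36 h groups, changed by -0.23, -0.13, -0.17, 0.03 and -0.37 with rupture, and none of them passed.

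Of the 19 calls, 9 were kept whichever of the 8 arrays was left out: FANCE, FANCM, ORC5, POLD1, POLL, POLN, RAD21, RPA2 and TOP1. Besides FANCF, FANCI and MCM5, GINS1 ended without unruptured replicate 2, 3 or 4 or without ruptured replicate 5, 6, 7 or 8 (adjusted p up to 0.135), ORC2 without unruptured replicate 1, 2 or 3 or without ruptured replicate 6, 7 or 8 (adjusted p up to 0.113), POLE2 without unruptured replicate 1, 2 or 4 or without ruptured replicate 5, 7 or 8 (adjusted p up to 0.111) and RAD17 without unruptured replicate 1, 2 or 4 or without ruptured replicate 7 (adjusted p up to 0.0824). FANCG ended without unruptured replicate 2, 3 or 4 or without ruptured replicate 6, 7 or 8 (adjusted p up to 0.103), TOP2B without unruptured replicate 4 or without ruptured replicate 7 (adjusted p up to 0.0631) and ERCC5 without unruptured replicate 1 or without ruptured replicate 7 (adjusted p up to 0.0579). The count fell to 12 without unruptured replicate 2, unruptured replicate 4 or ruptured replicate 7. A fit of the 2 rupture groups alone called 0 members, with 26 at an unadjusted p under 0.05, and 2.5% of all probe sets. ORC5, which helps to mark origins, changed by -0.60 ± 0.11 (SE, adjusted p = 0.00215), and RPA2, part of the complex that coats single-stranded DNA, by -0.64 ± 0.16 (SE, adjusted p = 0.014). POLD1, the catalytic subunit of polymerase delta, changed by -0.61 ± 0.15 (SE, adjusted p = 0.0127). Among 8 granulosa markers 1 (INHBA) was higher in ruptured follicles, and their summed intensity was 6045 to 9420 in ruptured and 1106 to 4637 in unruptured follicles. The mean log2 intensity of this list overlapped, at 7.62 to 8.61 in ruptured and 6.00 to 7.80 in unruptured follicles. Sums of the 5 neutrophil markers were 207 to 542.9 in ruptured and 189.2 to 359.4 in unruptured follicles, with none called. Of 9 endothelial markers 1 (TEK) was lower, with sums of 2112 to 3038 in ruptured and 2109 to 2879 in unruptured follicles, and of 8 oocyte markers 1 (ZP4) was higher, with sums of 489.8 to 1041 in ruptured and 670.1 to 1123 in unruptured follicles. None of 7 theca, 10 macrophage, 8 lymphocyte, 4 smooth muscle and 3 erythroid markers was called. The part of these cells in the members' changes was not tested.

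**Figure D3:**
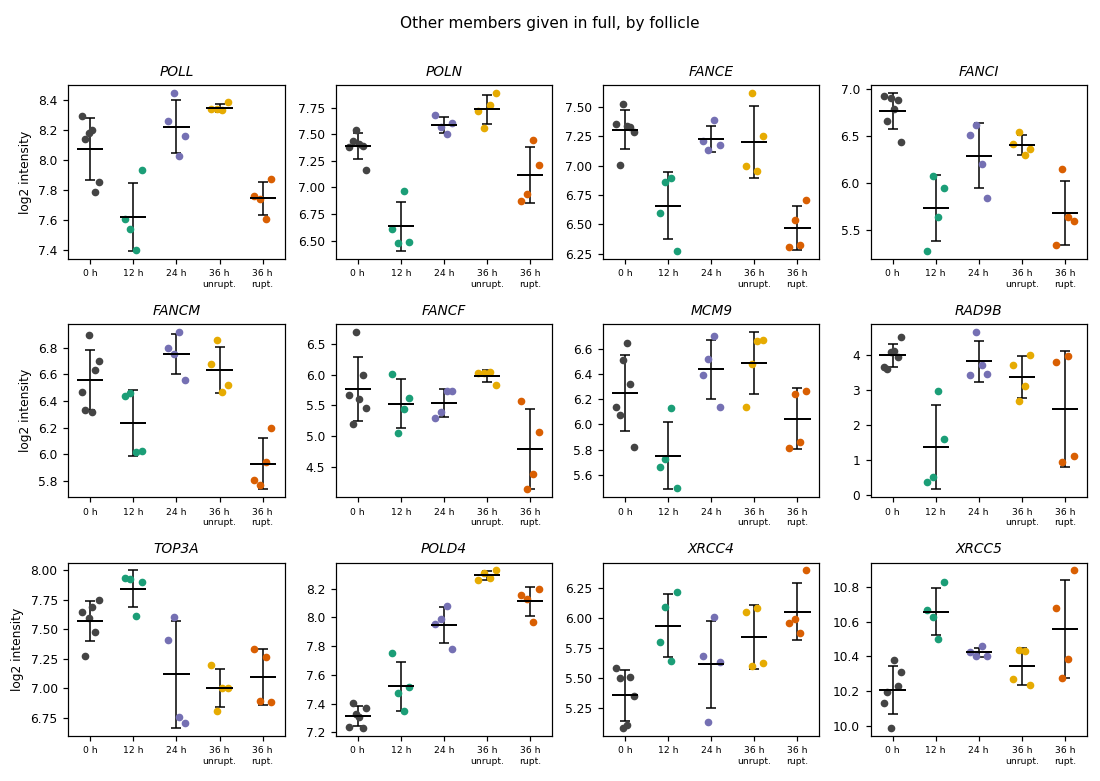
Points are follicles, with log2 intensity on the vertical axis and the 5 groups on the horizontal axis; lines give the group mean and bars the SD (n = 6 at 0 h, n = 4 in the other groups). POLL, POLN, FANCE, FANCI and FANCM have their lowest group means at 12 h and in ruptured follicles, and POLD4 has higher values in every follicle from 24 h on than in any at 0 h.

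The group means of the 12 h against 0 h and the ruptured against unruptured comparisons use no follicle in common. Their calls come from the same limma fit of all arrays and share its estimate of spread, so they are not independent. In both comparisons, 10 members were lower: FANCE, FANCI, GINS1, MCM5, ORC5, POLD1, POLL, POLN, RAD21 and RPA2. They were 43.5% of the 23 lower at 12 h and 52.6% of the 19 lower after rupture. Over all named genes, 425 were lower in both, which is 38.6% of the 1102 lower at 12 h and 39.2% of the 1084 lower after rupture. In fits of only the 2 groups compared, no member was called for rupture, so no member was lower in both.

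Set against the follicles without hCG, MCM2, MCM4, MCM5, MCM10, PCNA, TOP2A, MSH6 and RAD21 were lower in every later group. Calls were most numerous in ruptured follicles, among the members and over all named genes alike. The comparisons with 0 h share the 0 h arrays. At 24 h, 8 members (10.7%) were lower and 1 (1.33%) higher than at 0 h, beside 1.69% lower and 1.66% higher of all probe sets and 2.62% and 2.87% of the named genes. The lower ones were these 8, and the higher one was POLD4. In unruptured 36 h follicles 15 (20%) were lower and 1 (1.33%) higher, beside 2.65% and 2.08% of all probe sets and 3.82% and 3.35% of the named genes. The lower ones were the same 8 with MCM3, BRCA1, FANCB, ERCC2, POLD1, POLD2 and POLQ. The FANCB call ended without unruptured replicate 3 (adjusted p up to 0.0693), that of POLD2 without 0 h replicate 1, 3 or 4 or without unruptured replicate 1, 2, 3 or 4 (adjusted p up to 0.105) and that of POLQ without 0 h replicate 2, 3, 5 or 6 or without unruptured replicate 3 or 4 (adjusted p up to 0.109). In ruptured follicles 38 (50.7%) were lower and 2 (2.67%) higher, beside 8.78% and 7.01% of all probe sets and 11.8% and 9.43% of the named genes. The median changes of the members from 0 h were -0.23 at 24 h, -0.29 in unruptured and -0.57 in ruptured 36 h follicles, beside 0.01, 0.02 and -0.03 over all named genes.

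Markers of other cells moved in these comparisons as well. At 24 h against 0 h, 4 of 8 granulosa markers were lower, with a median change of -2.21 over the list, and the sums of 1625 to 3054 at 24 h and 6534 to 14680 at 0 h did not overlap. Of 7 theca markers 1 (CYP17A1) was lower and 1 (STAR) higher, with sums of 17330 to 21630 at 24 h and 16510 to 23750 at 0 h. Sums weigh the brightest markers most. The mean log2 intensity of the theca list did not overlap, at 8.79 to 9.14 at 24 h and 9.34 to 9.74 at 0 h. Its median change was -0.13. Of 10 macrophage markers 2 and of 5 neutrophil markers 1 were higher, with macrophage sums of 2920 to 6155 at 24 h and 1721 to 3038 at 0 h and neutrophil sums of 208.5 to 295.5 at 24 h and 42.46 to 240.8 at 0 h. In unruptured 36 h follicles against 0 h, 3 of 8 granulosa markers were lower, with a median change of -2.01, and the sums of 1106 to 4637 in unruptured and 6534 to 14680 in 0 h follicles did not overlap. Of 7 theca markers 2 (CYP17A1 and HHIP) were lower and 1 (STAR) higher, with sums of 16070 to 19580 in unruptured and 16510 to 23750 in 0 h follicles. The mean log2 intensity of the theca list did not overlap, at 8.69 to 8.91 in unruptured and 9.34 to 9.74 in 0 h follicles. Its median change was 0.001. Of 10 macrophage markers 1 and of 5 neutrophil markers 1 were higher, with macrophage sums of 2842 to 4106 in unruptured and 1721 to 3038 in 0 h follicles and neutrophil sums of 189.2 to 359.4 in unruptured and 42.46 to 240.8 in 0 h follicles. None of the endothelial, lymphocyte, oocyte, smooth muscle and erythroid markers was called in either comparison. The part of these lists in the members' changes was not tested. A fit of the unruptured 36 h and 0 h groups alone called 10 members, with 31 at an unadjusted p under 0.05, and 2.59% of all probe sets.

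**Figure D4:**
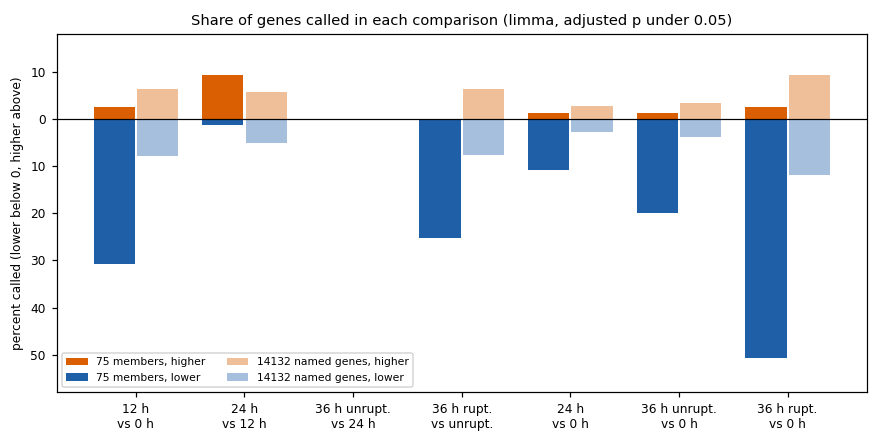
Bars give the percent of genes called higher (above 0) or lower (below 0) by limma at an adjusted p under 0.05 in each of 7 comparisons, for the 75 members (dark, left) and all 14132 named genes (pale, right). Lower calls exceed higher calls among the members in every comparison with calls except 24 h against 12 h, where 7 members were higher and 1 lower.

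TOP2A measured 7.18, 7.13, 7.51 and 6.60 at 24 h, 7.45, 7.12, 7.48 and 6.74 in unruptured and 6.92, 7.47, 6.69 and 6.25 in ruptured 36 h follicles. Every one of these 12 follicles was below the lowest 0 h follicle, and in ruptured follicles the change was -2.003 ± 0.28 (SE, adjusted p = 6.73e-05), 4.01-fold lower. MCM5 in ruptured follicles was -1.70 ± 0.14 (SE, adjusted p = 4.2e-07) from 0 h, 3.25-fold lower, in unruptured follicles -1.13 ± 0.14 (SE, adjusted p = 0.000165) and at 24 h -0.70 ± 0.14 (SE, adjusted p = 0.00909). MCM3 measured 6.50, 6.59, 6.73 and 6.40 in ruptured follicles, all below the 0 h follicles, a change of -1.52 ± 0.16 (SE, adjusted p = 5.64e-06), and 7.08, 6.99, 7.05 and 7.22 in unruptured ones, a change of -0.99 ± 0.16 (SE, adjusted p = 0.00177). At 24 h its change of -0.55 ± 0.16 (SE, adjusted p = 0.0781) did not pass.

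MCM2 measured 7.33, 7.33, 7.47 and 7.19 at 24 h, 6.82, 7.20, 7.13 and 7.20 in unruptured and 6.98, 6.79, 6.65 and 7.03 in ruptured follicles. Its changes from 0 h were -0.85, -1.09 and -1.32, all called and without overlap. MCM4 measured 7.29, 7.31, 7.73 and 7.31 at 24 h, 7.44, 7.67, 7.41 and 7.37 in unruptured and 7.43, 7.38, 7.34 and 7.23 in ruptured follicles. Its changes from 0 h were -0.81, -0.75 and -0.88, all called. MCM10 measured 5.30, 5.46, 5.78 and 5.33 at 24 h, 5.21, 5.26, 5.22 and 5.25 in unruptured and 5.17, 5.22, 5.20 and 4.68 in ruptured follicles, with called changes of -0.94, -1.17 and -1.34. PCNA measured 9.15, 9.23, 9.22 and 9.16 at 24 h, 8.94, 9.13, 9.08 and 9.09 in unruptured and 9.21, 8.95, 9.20 and 9.01 in ruptured follicles, with called changes of -0.50, -0.63 and -0.60. None of these PCNA or MCM10 groups overlapped with 0 h. At 24 h the MCM10 call ended without 24 h replicate 1 or 4 (adjusted p up to 0.0573) and the PCNA call without 24 h replicate 1 or 4 (adjusted p up to 0.0508). The PCNA call also ended in a limma fit of the 24 h and 0 h groups alone (adjusted p = 0.06605).

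MSH6, which recognises mismatched bases, was lower than at 0 h, with changes of -0.71, -0.68, -0.65 and -1.002 at 12 h, 24 h, unruptured and ruptured 36 h, called each time. RAD21, the cohesin subunit that closes the ring around sister chromatids, was lower with changes of -0.70, -0.53, -0.50 and -1.01, also called each time. In limma fits of only the 2 groups compared, RAD21 missed the threshold at 24 h (adjusted p = 0.05165) and in unruptured follicles (adjusted p = 0.05491). MSH6 missed it there at 24 h (adjusted p = 0.05423). BRCA1 measured 5.67, 6.17, 5.79 and 5.84 at 24 h, 5.35, 6.07, 5.59 and 5.78 in unruptured and 5.32, 5.53, 5.35 and 5.32 in ruptured follicles. It passed in unruptured follicles at -0.61 ± 0.15 (SE, adjusted p = 0.0214) and in ruptured follicles at -0.93 ± 0.15 (SE, adjusted p = 0.000243), without overlap with 0 h. The call in unruptured follicles ended without unruptured replicate 1 or 3 (adjusted p up to 0.0885). BRCA2 measured 3.12, 4.37, 3.06 and 2.70 at 24 h, 3.70, 4.32, 3.49 and 4.07 in unruptured and 3.30, 3.70, 2.26 and 3.36 in ruptured follicles, and each of these groups overlapped with 0 h. Its change in ruptured follicles of -0.94 ± 0.31 (SE, adjusted p = 0.0442) was called, but the call ended without 0 h replicate 1, 2, 3, 4 or 5 or without ruptured replicate 5, 7 or 8 (adjusted p up to 0.19), and with array weights (adjusted p = 0.0559).

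RDM1 measured 3.27, 4.08, 3.75 and 3.15 at 24 h, 3.62, 1.27, 3.59 and 2.30 in unruptured and 0.22, 4.08, 3.72 and 0.48 in ruptured follicles. Against 0 h it passed only in ruptured follicles at -2.62 ± 0.77 (SE, adjusted p = 0.0237), besides 12 h, with overlap in 1 follicle, and the call ended without ruptured replicate 5 or 8 (adjusted p up to 0.109). All 7 Fanconi genes were lower in ruptured follicles than at 0 h: FANCI at -1.08 ± 0.18 (SE, adjusted p = 0.000429), FANCE at -0.84 ± 0.15 (SE, adjusted p = 0.000789) and FANCM at -0.63 ± 0.14 (SE, adjusted p = 0.00508), each without overlap, and FANCB, FANCF, FANCG and FANCL at -1.04, -0.98, -0.53 and -0.999. FANCF overlapped with 0 h in this comparison, and its call ended without ruptured replicate 6 or 7 (adjusted p up to 0.0976). FANCL, the ligase subunit, ended without 0 h replicate 3, 5 or 6 or without ruptured replicate 5 or 7 (adjusted p up to 0.0922). In ruptured follicles against 0 h, 9 of 14 licensing genes, 7 of 15 replicative polymerase genes and 4 of 9 recombination genes were lower. So were 3 of 5 checkpoint clamp and cohesin genes, 3 of 5 topoisomerases and 2 of 5 translesion and other polymerases. The same held for 2 of 4 mismatch genes and 1 of 8 excision repair genes. Of all named genes 11.8% were lower in this comparison, and the 12.5% of the excision repair genes lay near that share. Of the 40 calls, 28 were kept whichever array was left out. In the same comparison 4 of 5 neutrophil markers were higher, with summed intensities of 207 to 542.9 in ruptured and 42.46 to 240.8 in 0 h follicles, as were 3 of 4 smooth muscle markers, with sums of 12100 to 15990 in ruptured and 7317 to 10760 in 0 h follicles. Theca markers were lower in 3 of 7 and higher in 1 (STAR), with sums of 17920 to 23670 in ruptured and 16510 to 23750 in 0 h follicles, and 2 of 8 granulosa markers (CYP19A1 and HSD17B1) were lower, with sums of 6045 to 9420 in ruptured and 6534 to 14680 in 0 h follicles. The mean log2 intensity of the 7 theca markers did not overlap, at 8.44 to 8.89 in ruptured and 9.34 to 9.74 in 0 h follicles. Their median change was -0.12. Of 9 endothelial markers 1 (CDH5) was higher, with sums of 2112 to 3038 in ruptured and 1010 to 2080 in 0 h follicles. None of 10 macrophage, 8 lymphocyte, 8 oocyte and 3 erythroid markers was called. The part of these lists in the members' changes was not tested.

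POLD4, the smallest subunit of polymerase delta, was the only member called higher than at 0 h at 24 h and in unruptured follicles. It had a lowest of 7.23, a median of 7.32 and a highest of 7.40 at 0 h, and measured 7.76, 7.47, 7.35 and 7.51 at 12 h, 7.96, 7.99, 8.08 and 7.78 at 24 h, 8.26, 8.31, 8.28 and 8.33 in unruptured and 8.16, 8.13, 7.97 and 8.20 in ruptured 36 h follicles. Every follicle from 24 h on was above every 0 h follicle. The change from 0 h was 0.64 ± 0.10 (SE, adjusted p = 0.000903) at 24 h, 0.98 ± 0.10 (SE, adjusted p = 2.43e-05) in unruptured and 0.80 ± 0.10 (SE, adjusted p = 1.63e-05) in ruptured follicles, and these calls were kept whichever array was left out. At 24 h against 12 h the change was 0.43 ± 0.11 (SE, adjusted p = 0.0179), a call that ended without 12 h replicate 3 or without 24 h replicate 3 (adjusted p up to 0.0619). POLD1, POLD2 and POLD3, the other subunits of that polymerase, were lower in ruptured follicles than at 0 h, with changes of -1.24, -0.49 and -0.67, all called. XRCC4 measured 5.95, 5.99, 5.87 and 6.39 in ruptured follicles, above every 0 h follicle, at 0.70 ± 0.18 (SE, adjusted p = 0.0107).

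The remaining values of these members fill in the other groups. At 24 h FANCI measured 6.51, 6.61, 6.20 and 5.84, FANCF 5.30, 5.40, 5.73 and 5.74 and FANCM 6.79, 6.75, 6.92 and 6.55. FANCM was higher at 24 h than at 12 h in every follicle, by a change of 0.52 ± 0.16 (SE, adjusted p = 0.0542) that did not pass. MCM9 measured 6.14, 6.48, 6.66 and 6.67 in unruptured and 5.81, 6.24, 5.86 and 6.26 in ruptured follicles, with a lowest of 5.82, a median of 6.23 and a highest of 6.65 at 0 h. RAD9B measured 3.71, 2.68, 3.12 and 4.01 in unruptured and 3.81, 0.94, 3.98 and 1.11 in ruptured follicles, where 2 follicles were near 1 and 2 near 4. TOP3A measured 7.20, 6.81, 7.00 and 7.00 in unruptured and 7.33, 6.89, 7.26 and 6.89 in ruptured follicles, with a lowest of 7.27, a median of 7.62 and a highest of 7.75 at 0 h. Every unruptured TOP3A value was below the 0 h range, and the change of -0.57 ± 0.17 (SE, adjusted p = 0.065) did not pass. XRCC4 measured 5.68, 5.13, 6.00 and 5.63 at 24 h and 6.05, 5.60, 6.08 and 5.62 in unruptured follicles. XRCC5 measured 10.43, 10.40, 10.46 and 10.40 at 24 h, 10.27, 10.43, 10.43 and 10.24 in unruptured and 10.68, 10.28, 10.39 and 10.90 in ruptured follicles, and none of its changes from 0 h at these times passed.

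The excision repair genes gave few calls in any comparison. ERCC2, a helicase of transcription factor TFIIH, was lower than at 0 h in unruptured and ruptured follicles, at -0.49 and -0.65. ERCC5, a nuclease that cuts beside the lesion, was lower in ruptured than unruptured follicles, at -0.52. The ERCC2 call in unruptured follicles ended without 0 h replicate 1, 2, 3, 4 or 6 or without unruptured replicate 1, 2, 3 or 4 (adjusted p up to 0.135). ERCC1, ERCC3, ERCC4, ERCC6, ERCC8 and RAD23B passed in none of the 7 comparisons. The RFC clamp loader genes RFC1, RFC2, RFC3 and RFC5 also passed in none, with changes in ruptured follicles against 0 h of 0.28, -0.04, -0.84 and -0.57. MSH4 and MSH5, known from meiotic recombination, were among the dimmest and most variable members and passed in none.

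Other genes of the same processes were read from 3 further lists. Of 40 other replication genes 29 were measured. At 12 h against 0 h, 9 (31%) were lower, beside 7.8% of all named genes, and none higher, with a median of -0.59. The largest changes were of E2F2 at -1.48 (adjusted p = 0.00014), E2F7 at -1.25 (adjusted p = 0.0108) and RNASEH2A at -1.25 (adjusted p = 2.72e-05). E2F2 and E2F7 are transcription factors of S-phase genes, and RNASEH2A removes RNA from DNA. In ruptured follicles against 0 h, 18 (62.1%) were lower, beside 11.8% of all named genes. Among them was GMNN, an inhibitor of licensing, at -1.47 (adjusted p = 1.69e-05), and CLSPN, a checkpoint adaptor, was the 1 higher at 1.37 (adjusted p = 0.00746). CLSPN was also higher in ruptured than unruptured follicles at 1.54 (adjusted p = 0.0109). In that comparison 2 (6.9%) of the 29 were lower and 1 (3.45%) higher, beside 7.67% and 6.47% of all named genes. Of 75 other repair and checkpoint genes 54 were measured. At 12 h against 0 h, 13 (24.1%) were lower and 2 (3.7%) higher, beside 7.8% and 6.5% of all named genes. The damage-inducible GADD45B was among the higher at 1.38 (adjusted p = 0.0283). In ruptured follicles against unruptured ones 5 (9.26%) were lower and 3 (5.56%) higher, near the 7.67% and 6.47% of all named genes. Among the higher ones was DCLRE1C, the end joining nuclease Artemis, at 2.03 (adjusted p = 0.00455).

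Of 30 mitosis and proliferation genes 15 were measured. At 12 h against 0 h, 9 (60%) were lower and 1 (6.67%) higher, beside 7.8% and 6.5% of all named genes. CDKN1A, the cyclin-dependent kinase inhibitor p21, was the 1 higher at 1.11 (adjusted p = 0.0083). MKI67, a marker of cycling cells, was at -1.40 (adjusted p = 0.00606), CCNB1 at -0.84 (adjusted p = 0.0116) and CDK1 at -0.64 (adjusted p = 0.147), of which CDK1 did not pass. In ruptured follicles against 0 h, 12 (80%) were lower, beside 11.8% of all named genes. CCNB1 was at -1.31 (adjusted p = 0.000181), CDK1 at -1.61 (adjusted p = 0.00029) and MKI67 at -1.001 (adjusted p = 0.0293), while CDKN1A was higher at 2.38 (adjusted p = 4.79e-06). Between ruptured and unruptured follicles only CDKN1A, at 1.11 (adjusted p = 0.0151), and CDKN1B, at -0.70 (adjusted p = 0.015), were called in this list. At 24 h against 12 h none of the 15 was called by limma, at a median of 0.02, with 1 lower and 0 higher at an unadjusted p under 0.05.

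**Figure D5:**
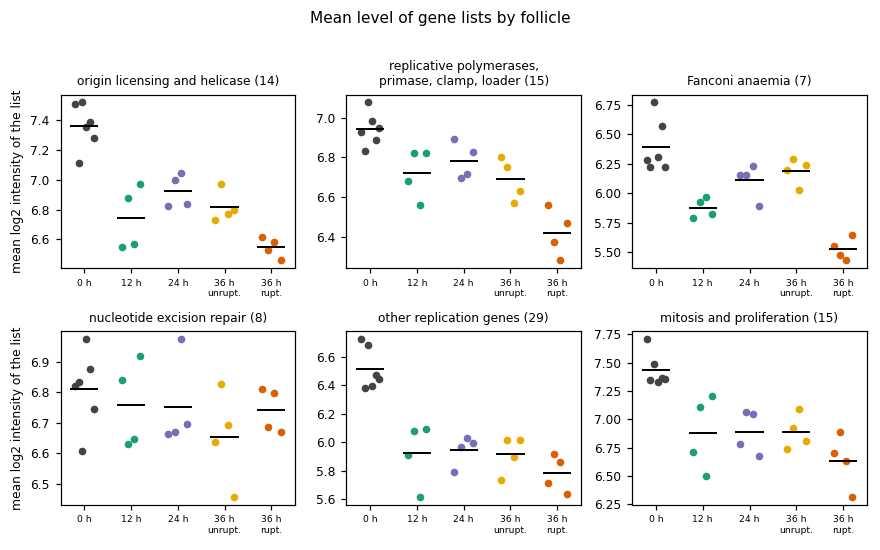
Points are follicles and lines group means of the mean log2 intensity of a gene list, with the number of measured genes in each title. The licensing members, the other replication genes and the mitosis genes are highest at 0 h, the Fanconi members are low at 12 h and in ruptured follicles, and the excision repair members overlap in all 5 groups.

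Where a gene had several probe sets, the others can be set beside the one used. Of the 75 members 38 had more than 1, with 61 others in all. At 12 h against 0 h, 50 of these 61 had the same sign as the brightest of their gene, and at ruptured against unruptured 44 of 61. No gene had calls in opposite directions. For POLN the median over its probe sets at 24 h against 12 h was -0.12, against 0.95 for the brightest. For POLD1 at 12 h against 0 h the median was 0.18, against -0.48 for the brightest. POLD1 has only 2 probe sets, so the other rose by more than the brightest fell, without being called. The brightest probe sets of GINS4, MCM5, POLE2 and RPA3 have names that mark sets able to match more than 1 transcript, and their values are uncertain in that respect.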

How the data were processed

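RNA of 22 follicles was measured on Affymetrix arrays, and 2 µg of total RNA per follicle was amplified and biotin-labelled, per the labels' protocols. The authors deposited intensities, 1 per probe set and array. The submitters' processing notes name RMA, a method that corrects background, normalizes between arrays and summarises probes; its version was not given. Since the deposited intensities spanned 0.0361 to 15137, and the medians of the arrays 26.1 to 26.7, they were taken as linear and log2 was computed here. No depth exists for arrays, and the number of arrays limits the precision. Scan dates, batches and detection calls were not given, so no batch was tested. The labels do not tie each array to an animal of its own, so p-values measure only the spread between these samples, which may be partly technical.

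After 99 control probe sets were removed, 52766 were tested. Symbols came from the platform annotation (24956 probe sets with 1 symbol, 361 with several, 27449 with none), and all 75 members matched the RefSeq gene table by gene ID, with 0 symbols that differed. Sample titles gave the group and the replicate number. Group means of all 22 arrays were fitted with limma 3.58.1 in R 4.3.3 (lmFit, eBayes), with 7 two-sided contrasts and an F test, adjusted by Benjamini-Hochberg over all probe sets of each result, and called at an adjusted p under 0.05. The fit was tested on simulated data. Alternatives were the replicate number as a block, the index of control transcripts as a covariate, array weights, 16 added before log2, only brighter probe sets, arrays centred on their median, the median over a gene's probe sets, fits of 2 groups, and leaving out each array.

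The members and gene lists were chosen with earlier results of these data known. Given in full were a panel of 12 genes, of which 9 were measured, and up to 4 called members at either end of the changes in each comparison of successive groups and in ruptured 36 h against 0 h. From the other lists at most 3 called genes with the largest change per comparison were named, with MKI67, CCNB1, CDK1, CDKN1A and CDKN1B. Marker lists were of granulosa, theca, endothelial, macrophage, lymphocyte, neutrophil, oocyte, smooth muscle and erythroid cells. No sequences were used, since none were given for these genes, and a planned motif search was not run.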

Additional observations from a re-analysis of the deposited data

Results flagged for a closer look

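In groups of 4 or 6 follicles, the highest or lowest follicle of each member given in full was set against the others of its group, and 8 of 110 member and group pairs had a follicle far from the rest by Dixon's criterion. Chance flags about 1 in 20 such groups. MCM2 was at 7.322 in 12 h replicate 3, with the other 12 h follicles at 7.631 to 7.68. TOP3A was also low in that follicle, at 7.612 with the others at 7.897 to 7.933. In 24 h replicate 3, MCM4 was at 7.73, with the other 24 h follicles at 7.29 to 7.31.

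Ruptured replicate 6 was low for MCM5, at 6.307 with the others at 6.645 to 6.689, and high for BRCA1, at 5.527 with the others at 5.321 to 5.347. MCM10 was at 4.681 in ruptured replicate 8, with the other ruptured follicles at 5.172 to 5.22. In unruptured replicate 4, POLL was at 8.391, with the others at 8.334 to 8.34, and FANCF was at 5.838, with the others at 6.021 to 6.038.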

How the results depend on the processing

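Of the 117 called changes of members over the 7 comparisons, all 117 kept direction and call with the arrays centred on their median, 116 with array weights, 116 with 16 added before log2 and all 109 that were bright enough with only brighter probe sets. With the index of control transcripts as a covariate 104 kept their call, and 24 h against 12 h gave 4 members. Only brighter probe sets gave 15 members at 24 h against 0 h. With only the 2 groups compared, 62 of 117 calls were kept, and the counts were 13 at 12 h against 0 h, 0 at 24 h against 12 h, 0 at ruptured against unruptured and 10 at unruptured 36 h against 0 h. These fits have fewer arrays.

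With the median over all probe sets of a gene, 105 calls were kept, and POLD1 at 12 h against 0 h had a value of 0.18 and POLN at 24 h against 12 h of -0.12, opposite in sign to the brightest probe set. Leaving out 1 array kept the call in 936 of 1116 cases. The counts ranged over 17 to 25 at 12 h against 0 h, 2 to 7 at 24 h against 12 h, 0 to 0 at unruptured 36 h against 24 h, 12 to 17 at ruptured against unruptured, 7 to 10 at 24 h, 11 to 15 at unruptured and 33 to 41 at ruptured 36 h against 0 h, and 35 to 41 for the F test.

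The labels do not say that replicate numbers pair the samples. Of 22 pairs of follicles with the same number, 1 had a correlation of deviations over 0.1, in a range of -0.176 to 0.173. Pairs with different numbers were not set beside them, so these values cannot exclude a pairing. With the replicate block the counts were 16 at 12 h against 0 h, 3 at 24 h against 12 h, 0 at ruptured against unruptured, 5 at 24 h, 8 at unruptured and 7 at ruptured 36 h against 0 h, and 20 for the F test. Ruptured and unruptured follicles share no replicate number. Except where named, the cause of these moves was not tested.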
